A study of Mus musculus with 6 samples.

Results

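Expression of 10 erythroid and megakaryocyte transcription factor genes (Gata1, Gata2, Klf1, Zfpm1, Tal1, Lyl1, Lmo2, Ldb1, Gfi1b and Nfe2) was compared between control and Med12-deleted haematopoietic stem and progenitor cells. The genes were taken by name, and every probe set that the platform annotation assigned to exactly 1 of these symbols was taken, which gave 12 probe sets of the 45037 tested and 10 of the 18193 genes measured. Gata2 and Zfpm1 were each read by a pair of probe sets and the other 8 genes by 1. The study used 6 arrays, 3 from mice called controls in the labels and 3 from Med12 KO mice, which were Med12Flox;MxCre animals, all of background strain B6/129. In both groups lineage-negative bone marrow cells positive for c-Kit and Sca1 were sorted 4 days after pI:pC, a double-stranded RNA analogue that induces interferon. MxCre is driven by an interferon-responsive promoter and is therefore active in more cell types than blood progenitors. The labels give neither the genotype of the controls nor the age of the mice, and nothing in them says that each array came from a separate animal, so each p-value reflects no more than the spread among these arrays, which may be technical. Each array was hybridised with cDNA amplified from 5 ng of total RNA, and the deposited values are linear signals without a stated unit.

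Red cells and megakaryocytes arise from a shared progenitor, and their genes are switched on by a small group of factors that bind DNA together. GATA1 and GATA2 are zinc finger proteins that recognise GATA letters, and GATA2, active in stem and early progenitor cells, is displaced by GATA1 at many sites as red cells mature. FOG1, the product of Zfpm1, binds GATA factors without touching DNA itself. TAL1 and its relative LYL1 are basic helix-loop-helix proteins that pair with E proteins and are held beside GATA factors by the bridging proteins LMO2 and LDB1. KLF1 drives globin and other red cell genes through CACCC letters, GFI1B is a repressor that recruits histone demethylase and deacetylase complexes, and NFE2 joins small MAF proteins to drive platelet formation and globin genes. MED12, the deleted gene, belongs to the kinase module of Mediator, a complex through which such factors reach RNA polymerase II.

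The 250 bases before the annotated start of 4 of these genes are shown because Gata1 and Klf1 passed the test of the comparison, Gfi1b had the lowest adjusted p among the factors with higher signal that missed it, and Lyl1 had the most negative difference. They are RefSeq sequences of build GRCm38.p6, given 5′ to 3′ on the strand of the gene; for Gata1 and Lyl1 the start used by the table lies inside the annotated span of the gene. Capitals mark GATA letters (the hexamers AGATAA and AGATAG and also TGATAA and also TGATAG) and CACCC on either strand, so that matches on the other strand read as their reverse complements.
Gata1, chrX:7967911-7968160, minus strand: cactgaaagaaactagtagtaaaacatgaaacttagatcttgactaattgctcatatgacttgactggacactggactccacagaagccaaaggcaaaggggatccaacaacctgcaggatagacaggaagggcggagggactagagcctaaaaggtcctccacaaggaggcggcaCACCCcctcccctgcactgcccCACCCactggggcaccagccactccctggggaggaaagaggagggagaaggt
Klf1, chr8:84901732-84901981, plus strand: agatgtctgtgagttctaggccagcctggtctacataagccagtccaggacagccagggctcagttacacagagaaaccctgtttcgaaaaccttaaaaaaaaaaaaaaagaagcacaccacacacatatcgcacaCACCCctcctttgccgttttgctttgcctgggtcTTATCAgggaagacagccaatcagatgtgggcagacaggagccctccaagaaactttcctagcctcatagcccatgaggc
Gfi1b, chr2:28621983-28622232, minus strand: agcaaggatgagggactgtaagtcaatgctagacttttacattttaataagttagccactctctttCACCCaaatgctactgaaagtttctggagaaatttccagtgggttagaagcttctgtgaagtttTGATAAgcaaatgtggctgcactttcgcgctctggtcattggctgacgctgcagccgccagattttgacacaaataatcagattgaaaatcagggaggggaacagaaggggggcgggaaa
Lyl1, chr8:84701207-84701456, plus strand: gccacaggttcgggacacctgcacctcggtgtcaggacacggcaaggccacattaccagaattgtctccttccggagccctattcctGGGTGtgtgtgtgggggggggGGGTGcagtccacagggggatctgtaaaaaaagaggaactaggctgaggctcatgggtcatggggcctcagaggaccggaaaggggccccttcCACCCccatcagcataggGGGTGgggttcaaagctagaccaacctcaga
The Gata1 window held CACCC 74 and 52 bases before the start and no GATA letters. The Klf1 window held CACCC 114 bases and GATA letters 80 bases before the start. The Gfi1b window held CACCC 184 bases and GATA letters 120 bases before the start. The Lyl1 window held CACCC on either strand at 4 places and no GATA letters. Promoter entries were matched for 8 of the 10 genes, all but Lmo2 and Nfe2, with 12 windows in all. CACCC was found in 10 of these 12 windows and in 52.0% of the 32851 windows of the table, and GATA letters were found in 4 of 12 and in 26.5% of all windows. A match of letters is a description of the sequence and does not show that a factor binds there.

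Before the factors, Med12 itself was examined. Signals of 278.6, 837.4 and 441.6 in controls stood against 89.1, 100.4 and 86.4 in knockouts (log2 difference -2.17, SE 0.38; limma adjusted p = 0.0796), so the groups did not overlap although the threshold of 0.05 was missed. The place of its single probe set relative to the floxed stretch is not given in the sources used here, so the probe set may not check the deletion. The median signal of all probe sets was 26.7 to 26.9 on control arrays and 16.5 to 21.3 on knockout arrays. The median log2 difference over all 18193 genes was -0.05, which centring each array on its own median moved to 0.22. All log2 values are of signal + 16, and each difference is knockout minus control.

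Gata1 and Klf1 rose in Med12 knockout cells by about the same amount, and they were the only ones of the 10 factors to pass the test. Of the 12 probe sets 2 passed (adjusted p under 0.05 in limma over all probe sets), both higher, against 0.762% of all 45037 probe sets, 0.220% higher and 0.542% lower. Counted over all probe sets, 99 were higher and 244 lower, a split that turned to 431 higher and 262 lower after median centring. An unadjusted p under 0.05 was seen for 6 of the 12 probe sets and for 15.7% of all.

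Gata1, the master regulator of red cell and megakaryocyte differentiation, lies on the X chromosome (GRCm38.p6, chrX:7959260-7976663). The control arrays read 178.1, 309.4 and 201.3 and the knockout arrays 835.5, 860.9 and 1229.9. The lowest knockout value was thus well above the highest control value, and the knockout mean was 4.25 times the control mean. The log2 difference was 2.03 (SE 0.26; 95% interval 1.40 to 2.66), with a limma adjusted p of 0.0424.

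Klf1, the factor of globin and red cell membrane genes (chr8:84901982-84905291), gave 201.8, 403.9 and 334.3 in controls and 1114.8, 1227.7 and 1549.2 in knockouts. The groups were again far apart, with a ratio of means of 4.14. Its log2 difference was 2.03 (SE 0.28; 95% interval 1.35 to 2.72; limma adjusted p = 0.0490). On both genes control replicate 2 was the highest control and knockout replicate 3 the highest knockout. Both calls lay close to the threshold. Leaving out any 1 of the 6 arrays ended both, with limma adjusted p values of 0.0700 to 0.135 for Gata1 and 0.0887 to 0.155 for Klf1, where at most 10 of 45037 probe sets passed, and the differences stayed between 1.76 and 2.25. Adding 1, 4 or 64 instead of 16 before log2, or cyclic loess normalization, also ended both calls, and quantile normalization ended that of Klf1 (limma adjusted p = 0.0556).

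**Figure D1:**
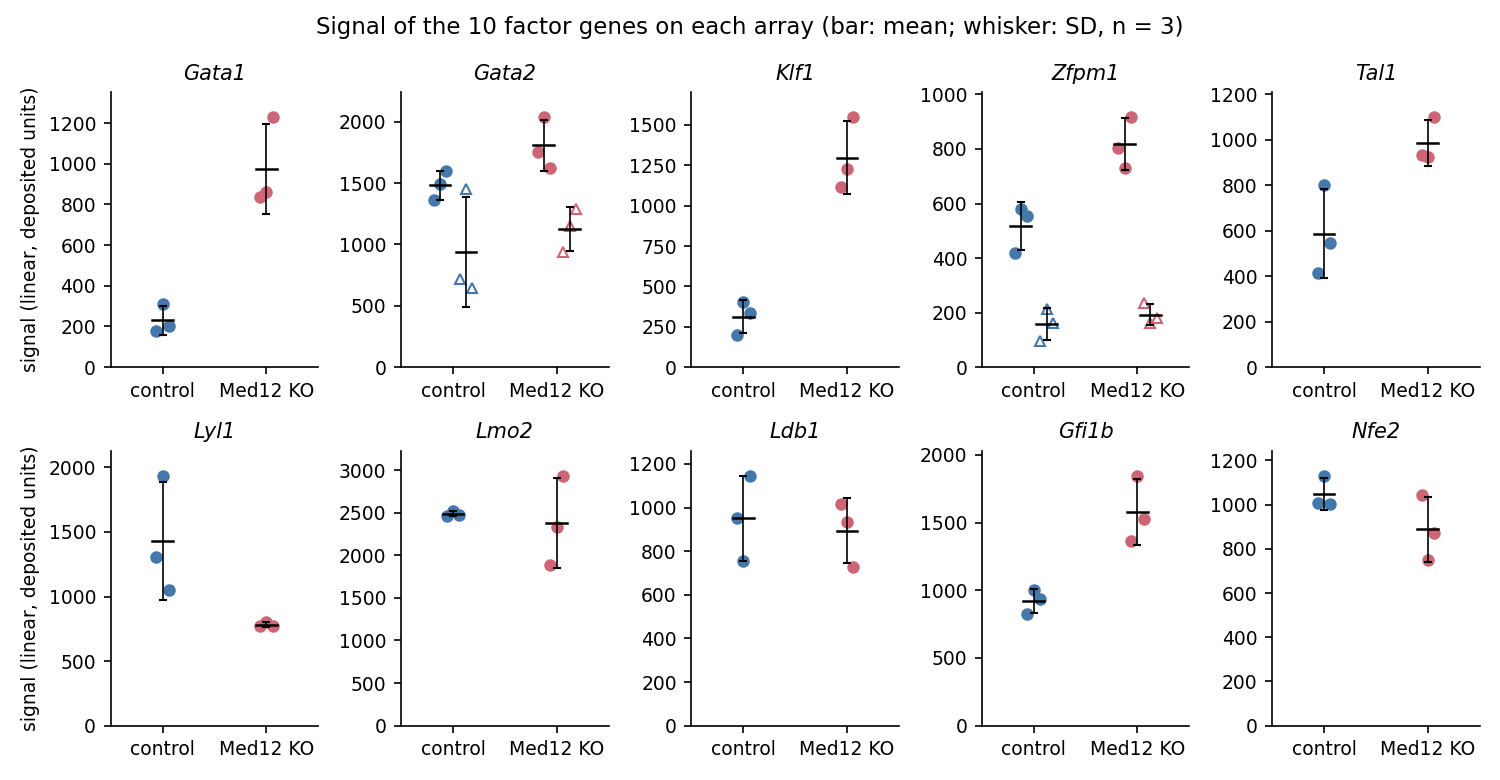
Deposited linear signal (y axis, arbitrary units, from 0) of each of the 10 genes in control and Med12 KO arrays, 3 points per group, with the mean as a bar and the SD as a whisker; filled circles are the probe set of highest mean and open triangles the other probe set of Gata2 and Zfpm1. Gata1 and Klf1 sit between 178.1 and 403.9 in controls and between 835.5 and 1549.2 in knockouts, whereas Lyl1 is lower on all 3 knockout arrays.

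Gata2, the GATA factor of stem cells, early progenitors and mast cells, did not pass on either probe set. The brighter one gave 1362.2, 1488.6 and 1597.9 in controls and 1755.1, 2038.5 and 1625.7 in knockouts. The groups did not overlap but were close, with a log2 difference of 0.28 (SE 0.14; 95% interval -0.07 to 0.63; limma adjusted p = 0.418). The other probe set overlapped between groups, at 643.2 to 1453.2 on control arrays against 938.7 to 1290.0 on knockout arrays (log2 0.34, SE 0.33; 95% interval -0.47 to 1.16). The interval of the brighter probe set ends below a doubling, but that of the other probe set holds a doubling. The test of unequal change between Gata1 and Gata2 is given with the paired factors.

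Zfpm1, which encodes the GATA cofactor FOG1, was at 417.3, 579.0 and 554.0 in controls and 805.3, 728.5 and 917.1 in knockouts. These groups did not overlap, and the log2 difference of 0.65 (SE 0.18; 95% interval 0.22 to 1.08) had a limma adjusted p of 0.166. Its dimmer probe set overlapped between groups with a log2 difference of 0.31 (SE 0.29; adjusted p = 0.681). The sign was shared, and a difference in size between the probe sets was not tested.

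The basic helix-loop-helix genes Tal1 and Lyl1 had differences of opposite sign, and neither passed. Tal1 had signals of 414.0, 800.8 and 547.1 in controls and 932.4, 922.6 and 1099.2 in knockouts. All its knockout values lay above its control values (log2 0.78, SE 0.25; 95% interval 0.16 to 1.39; limma adjusted p = 0.225). Lyl1 had signals of 1306.0, 1937.3 and 1053.3 in controls and 770.1, 805.9 and 770.6 in knockouts. It was the only one of the 10 genes whose knockout values all lay below its control values (log2 -0.81, SE 0.23; 95% interval -1.39 to -0.24; limma adjusted p = 0.186). The 3 knockout values of Lyl1 had an SD of 20.5, against 455 in controls.

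The bridging proteins of the complex showed no call. Lmo2, which links TAL1 to LDB1, was at 2465.0, 2520.8 and 2477.6 in controls and 1880.5, 2332.4 and 2936.6 in knockouts. The controls agreed closely and the knockouts spread to both sides of them (log2 -0.09, SE 0.18; 95% interval -0.54 to 0.37; limma adjusted p = 0.884). Ldb1, which dimerises and so can join distant sites, was at 951.3, 753.9 and 1146.2 in controls and 1017.9, 935.0 and 727.2 in knockouts. Its groups overlapped as well (log2 -0.08, SE 0.21; 95% interval -0.60 to 0.44; limma adjusted p = 0.907). For both genes the interval holds 0 and its ends lie inside a halving and a doubling, and median centring turned both signs, to 0.19 each.

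Gfi1b, the repressor needed in both lineages, was at 823.2, 1002.8 and 936.9 in controls and 1366.3, 1847.3 and 1527.4 in knockouts. The groups did not overlap and the ratio of means was 1.72 (log2 0.76, SE 0.16; 95% interval 0.37 to 1.16). Its limma adjusted p of 0.108 missed the threshold, and median centring brought it to 0.0493 with a log2 difference of 1.04. Nfe2, the platelet and globin factor, was at 1009.7, 1131.9 and 1004.4 in controls and 1041.9, 751.0 and 872.4 in knockouts. Its groups overlapped (log2 -0.25, SE 0.16; 95% interval -0.63 to 0.14; limma adjusted p = 0.529), and median centring moved the difference to 0.03.

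**Figure D2:**
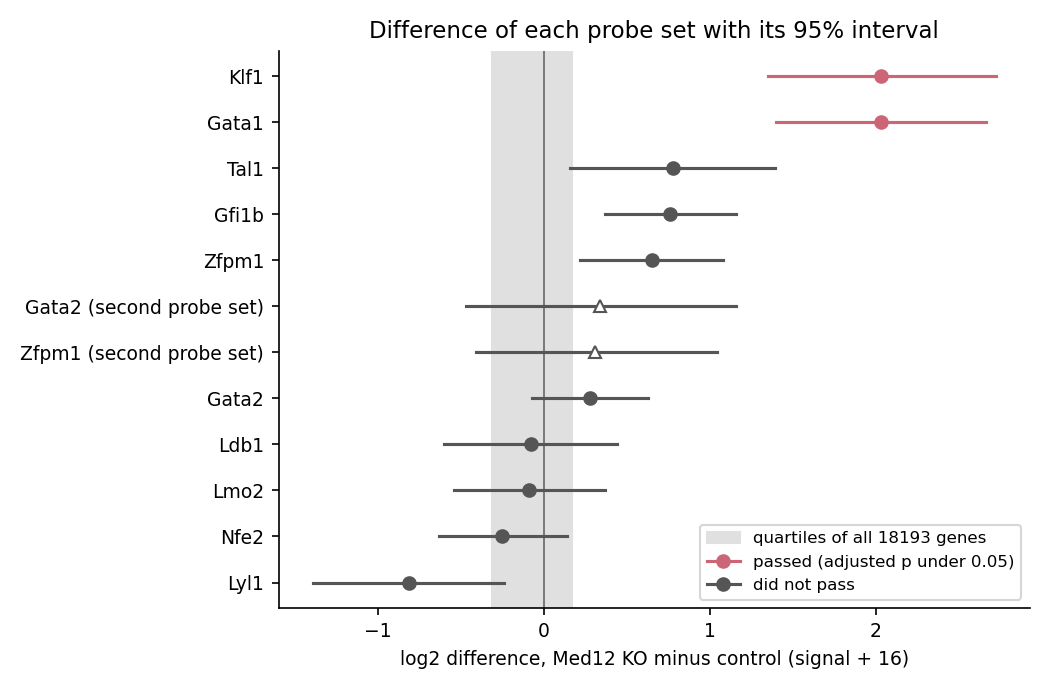
Log2 difference between Med12 KO and control arrays (x axis, signal + 16) for each of the 12 probe sets (y axis, ordered by size), with the 95% interval of the limma fit as a line; the grey band spans the quartiles of all genes, -0.31 to 0.17. Klf1 and Gata1, both at 2.03 and drawn in red, stand apart from the other 10 probe sets, whose differences run from -0.81 to 0.78.

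Over the 10 genes the median log2 difference was 0.47, against -0.05 over all 18193 genes. On the probe set of highest mean, 6 genes had all knockout values above all control values, 1 had them below and 3 overlapped; over the 12 probe sets the counts were 6, 1 and 5. The same separation was seen upward for 7.61% and downward for 13.3% of all probe sets, and for 16.5% and 13.1% of the 14381 probe sets with a mean signal of at least 100, a level that all 12 exceeded. Relative to the median of all genes, the difference of Gata1 lay between 1.95 and 2.08 and that of Klf1 between 1.96 and 2.09 over the deposited scaling, median centring, quantile and cyclic loess normalization. On this scale median centring gives the values of the deposited scaling by construction, so it is no separate check. On this relative scale Gfi1b ranged from 0.67 to 0.82, Tal1 from 0.69 to 0.83, Zfpm1 from 0.57 to 0.71 and Gata2 from 0.20 to 0.33. Lyl1 ranged from -0.91 to -0.76 and Nfe2 from -0.34 to -0.19, and Lmo2 and Ldb1 stayed between -0.16 and -0.03. Among controls, replicate 2 had the highest signal for 8 of the 10 genes, all but Gata2 and Ldb1, while it was the highest control for 30.9% of the 7878 genes with a mean of at least 100. Among knockouts, replicate 3 was highest for 5 of the 10 genes and for 35.4% of those 7878 genes.

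Whether related or opposing factors changed unequally was asked with the difference of their log2 values on the same array, which cancels the scaling of the array. In all 5 pairs the knockout values lay above the control values. The pairs were chosen with earlier results known, and no share over other gene pairs was taken. Gata1, Gfi1b, Tal1 and Klf1, the first genes of the pairs, were themselves higher on all knockout arrays, so the pairs are no separate result. With 3 against 3 arrays an exact two-sided permutation p cannot be under 0.10, the value reached by each pair (also 0.10 after adjustment over the 5 pairs). Gata1 minus Gata2 was higher in knockouts by 1.75 (SE 0.33; exact permutation p = 0.10): relative to the control mean the knockout arrays stood at 1.59, 1.41 and 2.25 and the controls at -0.18, 0.43 and -0.25. Gata1 thus gained on Gata2 on each knockout array by more than the control arrays differed among themselves. Tal1 minus Lyl1 was higher by 1.59 (SE 0.22; exact permutation p = 0.10), with knockouts at 1.54, 1.46 and 1.77 and controls at -0.35, 0.01 and 0.34. Of the 5 pairs this one had the smallest SD among knockouts, 0.16.

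Gfi1b was set against its paralog Gfi1, a repressor that works in granulocyte and lymphoid cells, which went from 821.0, 818.0 and 941.8 to 153.5, 61.4 and 7.1 (log2 -3.70, SE 0.70; limma adjusted p = 0.0906). Gfi1b minus Gfi1 was higher by 4.46 (SE 0.88; exact permutation p = 0.10), at 2.93, 4.49 and 5.97 in knockouts and between -0.10 and 0.19 in controls. Gfi1 read 7.1 on knockout replicate 3, under the 16 added before log2, so the size of this difference is set in part by that offset, and it was 5.10 with 1 added and 3.62 with 64 added. Gata1 minus Spi1, the gene of the myeloid and lymphoid factor PU.1 that GATA1 opposes, was higher by 2.82 (SE 0.46; exact permutation p = 0.10). Spi1 itself did not pass (log2 -0.80, SE 0.23; limma adjusted p = 0.188). Klf1 minus Fli1, an ETS factor of megakaryocytes that opposes KLF1, was higher by 2.36 (SE 0.44; exact permutation p = 0.10), and Fli1 was at -0.33 (SE 0.20; limma adjusted p = 0.506).

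**Figure D3:**
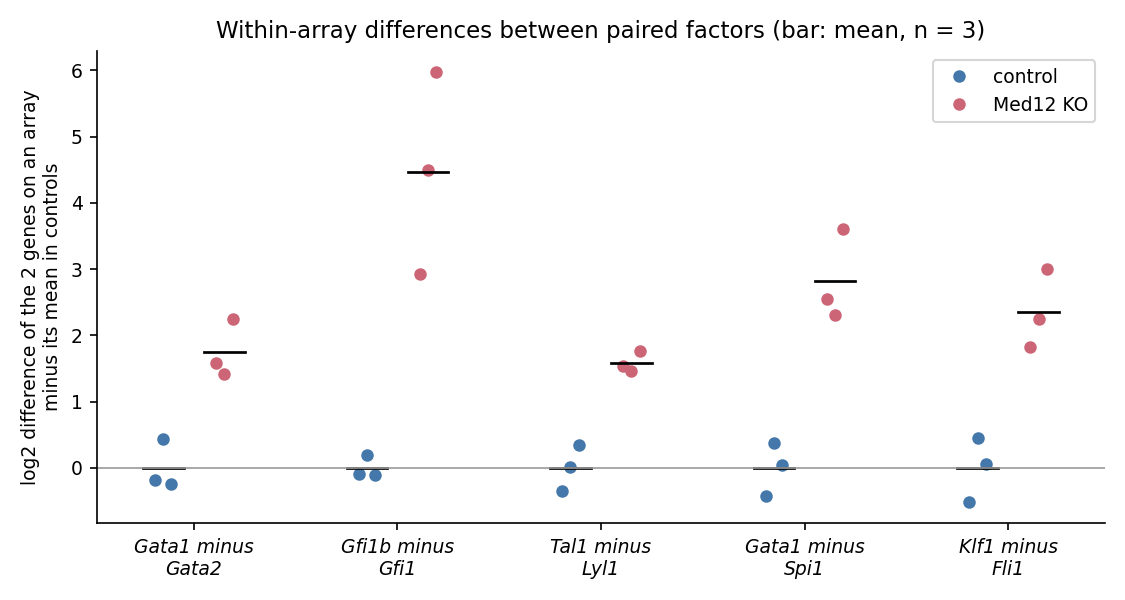
Difference of the log2 values of 2 genes on the same array, minus the mean of that difference in controls (y axis, log2), for 5 pairs of factors (x axis) with 3 control and 3 Med12 KO arrays each and group means as bars. All knockout points lie above all control points in every pair, from 1.59 on average for Tal1 minus Lyl1 to 4.46 for Gfi1b minus Gfi1, whose size moved between 3.62 and 5.10 with the offset.

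Genes whose proteins work with the 10 factors were read from 4 lists, which had 0 calls, as the share called over all genes would also give at their size. None of 12 LDB1 complex partners passed (limma, adjusted p under 0.05), against 0.352% of all genes higher and 0.638% lower; 2 had a positive and 10 a negative difference, with a median of -0.28, and 4 had an unadjusted p under 0.05, against 15.7% of all probe sets. The E protein gene Tcf3, a partner of TAL1, was at 0.28 (SE 0.31; adjusted p = 0.735) and its relative Tcf12 at -0.04 (SE 0.18; adjusted p = 0.948). The third E protein gene, Tcf4, was at -1.14 (SE 0.26; limma adjusted p = 0.128), with 0 of its 6 probe sets higher. Tcf4, Lmo4 (-0.96, SE 0.20) and Runx1 (-0.49, SE 0.14), singled out with their values known, were among the 5 of 12 genes whose knockout values all lay below the controls, against 13.3% of all probe sets. None of 14 genes of the LSD1-CoREST and NuRD corepressors, which GFI1B and FOG1 recruit, passed either, 1 had an unadjusted p under 0.05 and their median was 0.00, with the demethylase gene Kdm1a at 0.13 (SE 0.13) and the CoREST gene Rcor1 at 0.18 (SE 0.19). Of 8 NF-E2 partners and relatives none passed in limma and 1 had an unadjusted p under 0.05, and the small MAF genes Mafg and Mafk were at 0.10 (SE 0.12) and 0.24 (SE 0.30). Of 26 other factors of the lineages none passed in limma, 11 had an unadjusted p under 0.05, 20 had a negative difference and the median was -0.30, with Myb, needed by progenitors of all blood lineages, at -0.30 (SE 0.12; adjusted p = 0.330). After median centring the medians of these 4 lists were -0.01, 0.27, 0.33 and -0.02, against 0.22 over all genes.

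Red cell genes that GATA1 and KLF1 are known to drive were next read. Of 35 erythroid target genes measured 8 rose, against 0.352% of all genes, 0 fell and 27 did not pass in limma, and the median was 1.19. An unadjusted p under 0.05 was seen for 23 (15.7% of all probe sets), and 21 had knockout values all above controls (7.61% of all probe sets, or 16.5% of those with a mean signal of at least 100). The erythropoietin receptor gene Epor gave 88.4, 64.8 and 127.6 in controls and 321.8, 454.3 and 483.1 in knockouts (log2 2.01, SE 0.27; limma adjusted p = 0.0471). Alad, an enzyme of haem synthesis, gave 304.9, 270.0 and 252.1 in controls and 684.1, 754.7 and 1044.9 in knockouts (log2 1.51, SE 0.19; adjusted p = 0.0424). The groups were separate for both genes. The tetraspanin gene Tspan33 rose by 2.35 (SE 0.28; adjusted p = 0.0381), with 2 of its 4 probe sets passing and all 4 higher. The blood group membrane protein genes Kel and Rhag also rose, Kel by 3.46 (SE 0.48; limma adjusted p = 0.0494) and Rhag by 2.87 (SE 0.22; limma adjusted p = 0.0234). In controls Kel read 6.9 to 24.6 and Rhag 19.1 to 35.6, near the 16 added before log2. The size of both differences is thus set in part by that offset. Car1, a carbonic anhydrase gene, rose by 1.76, Blvrb, a biliverdin reductase gene, by 1.81, and Add2, of the membrane skeleton, by 1.59, with 1 of its 5 probe sets passing and all 5 higher. Without Med12 KO replicate 1 or replicate 3 none of the 45037 probe sets passed in limma, and no call in these lists was left.

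Of the 5 measured markers of maturing red cells, all of them also on the erythroid list, none passed in limma and 2 had an unadjusted p under 0.05. Slc4a1, the anion exchanger, went from 23.2, 185.8 and 69.3 to 11.8, 13.9 and 13.2 on its brightest probe set (log2 -1.60; adjusted p = 0.260), while 1 of its 3 probe sets was higher, and the membrane protein gene Epb42 was at -0.22 (adjusted p = 0.848). The adult alpha-globin probe set Hba-a2, which may also read its near-identical copy, overlapped between groups at 1520.4 to 3110.9 on control arrays against 1577.1 to 2512.6 on knockout arrays. Alas2, the erythroid enzyme that starts haem synthesis, was dim in both groups, at most 20.3 in controls and 78.6 in knockouts (log2 1.06, SE 0.40; adjusted p = 0.289). Other red cell genes of the same list that did not pass had higher signal on all knockout arrays than in controls, among them the membrane skeleton genes Ank1 (2.2 to 74.2 in controls, 155.2 to 1065.2 in knockouts), Sptb (log2 2.18, SE 0.38) and Dmtn (1.65, SE 0.25) and the blood group gene Ermap (2.42, SE 0.54). The adult beta-globin gene Hbb-b2 was at 1.13 (SE 0.65) with groups that overlapped. The genes of this paragraph were singled out with their values known.

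Of 22 megakaryocyte target genes, Itga2b, the platelet integrin chain also found on early progenitors, rose from 276.7, 360.4 and 407.4 to 896.9, 1024.4 and 1251.1 (log2 1.56, SE 0.20; limma adjusted p = 0.0431), and 21 did not pass. The share called higher over all genes was 0.352%. In this list 20 genes had a positive difference and the median was 0.53. Knockout values lay all above controls for 9 of 22 (7.61% of all probe sets, or 16.5% of those with a mean signal of at least 100). Singled out with their values known, the platelet glycoprotein genes Gp5 and Gp1bb were at 1.62 (SE 0.52) and 1.61 (SE 0.30) with groups that did not overlap, and the platelet chemokine gene Pf4 was at 0.10 (SE 0.20) with groups that did. Of 12 mast cell and basophil genes, whose lineage depends on GATA2, the chymase gene Cma1 rose (log2 2.56, SE 0.35; limma adjusted p = 0.0487), against 0.352% of all genes. On the brightest probe set 11 did not pass, 7 had a positive and 5 a negative difference, and the median was 0.22. Singled out with their values known, the other probe sets of Ms4a2 and Kit passed, Ms4a2 higher and Kit lower.

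**Figure D4:**
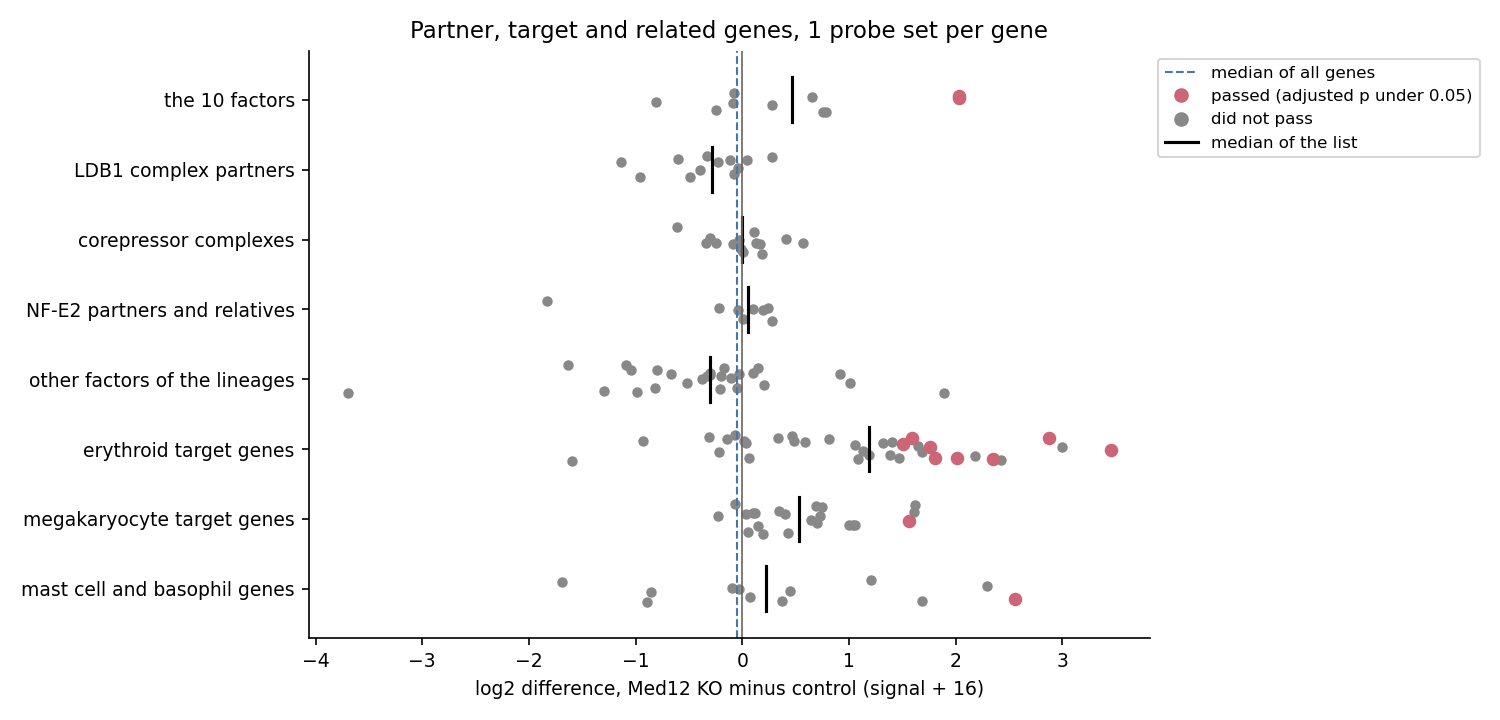
Log2 difference between Med12 KO and control arrays (x axis, signal + 16) of each gene in the 8 lists (y axis), 1 probe set per gene; red points passed the test, black bars are list medians and the dashed line is the median of all genes, -0.05. Red points appear among the 10 factors (2), the erythroid (8), megakaryocyte (1) and mast cell (1) targets, and in none of the 4 lists of partners and other factors.

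The gene with the pattern most like that of Gata1 was Klf1. Likeness was the distance over the 6 arrays between log2 values from which the control mean of each gene had been taken, among 7877 other genes with a mean signal of at least 100. Klf1 and the water and glycerol channel gene Aqp9 came first, both at a distance of 0.39 (log2), followed by the beta-tubulin gene Tubb2a and the septin gene Septin8 at 0.52 and the hydroxylase gene Asph at 0.65. Aqp9 went from 224.7, 350.2 and 186.3 in controls to 1055.9, 924.2 and 1498.2 in knockouts (log2 2.14; limma adjusted p = 0.0483), and the last 3 had differences of 1.84 to 2.17 that did not pass. The measure uses the same arrays as the comparison and is a description.

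Markers of other cells were set beside these results, as each array read a bulk sample in which fewer cells of a type and less RNA per cell cannot be told apart. For the sorted population 9 marker genes were measured, and Ly6a, the gene of Sca1, was not analysed here. The summed signal of these 9 genes was 6376.9 to 7833.0 on control arrays against 2952.0 to 3785.7 on knockout arrays. This sum includes Cd34 (mean 2123.4 in controls and 828.6 in knockouts) and Flt3 (924.4 and 60.7), which are not named in the gate and did not pass. Of the 9 genes 8 had a negative difference and 1 a positive one, Slamf1 at 0.49 (SE 0.42). The stem cell factor gene Hlf fell (log2 -2.17; limma adjusted p = 0.0479) and alone of the 9 passed on its brightest probe set, against 0.638% of all genes called lower. Procr (-0.86), Mecom (-0.29) and Meis1 (-0.30) overlapped between groups. Kit, which defines the gate, read 805.2 to 1425.4 on control arrays against 514.8 to 617.5 on knockout arrays on its brighter probe set, while the other probe set passed, lower. Of 10 granulocyte and monocyte markers 5 fell, against 0.638% of all genes called lower, and their sum was 8722.5 to 14572.6 on control arrays against 1032.6 to 1421.0 on knockout arrays. Of 12 lymphoid markers 3 fell, against the same 0.638%, and the sum of the 12 was 2424.9 to 3507.8 on control arrays against 54.6 to 163.0 on knockout arrays. The 5 measured markers of maturing red cells summed to 849.9 to 1024.8 on control arrays against 804.4 to 1045.0 on knockout arrays, mostly from Tmod1. Hba-a1 was at 0.6 to 2.5 on every array, but the Hba-a2 probe set, which was not in this sum, was bright. It read 1520.4 to 3110.9 on control arrays and 1577.1 to 2512.6 on knockout arrays. The 7 platelet and megakaryocyte markers summed to 2760.9 to 3998.1 on control arrays and 3851.5 to 5053.6 on knockout arrays, mostly from Pf4. Sums of the 7 mast cell and basophil markers were 1357.2 to 1804.3 and 2266.6 to 2557.7, and 6 of them were higher. The other, Mcpt8, was at -1.69 (SE 0.66; limma adjusted p = 0.298) with groups that overlapped. Of the 7 markers, Cma1 alone passed on its brightest probe set, and the other probe set of Ms4a2 passed too, higher. No marker was at exactly 0 on any array. The 8 endothelial and stromal markers summed to 591.6 to 869.9 on control arrays against 294.1 to 412.5 on knockout arrays. The largest part on every array was Pecam1. Of these markers 5 were lower and 3 higher, and Col1a2 was higher on all knockout arrays than on all control arrays. The part that any of these cells had in the differences of the 10 factors was not tested.

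**Figure D5:**
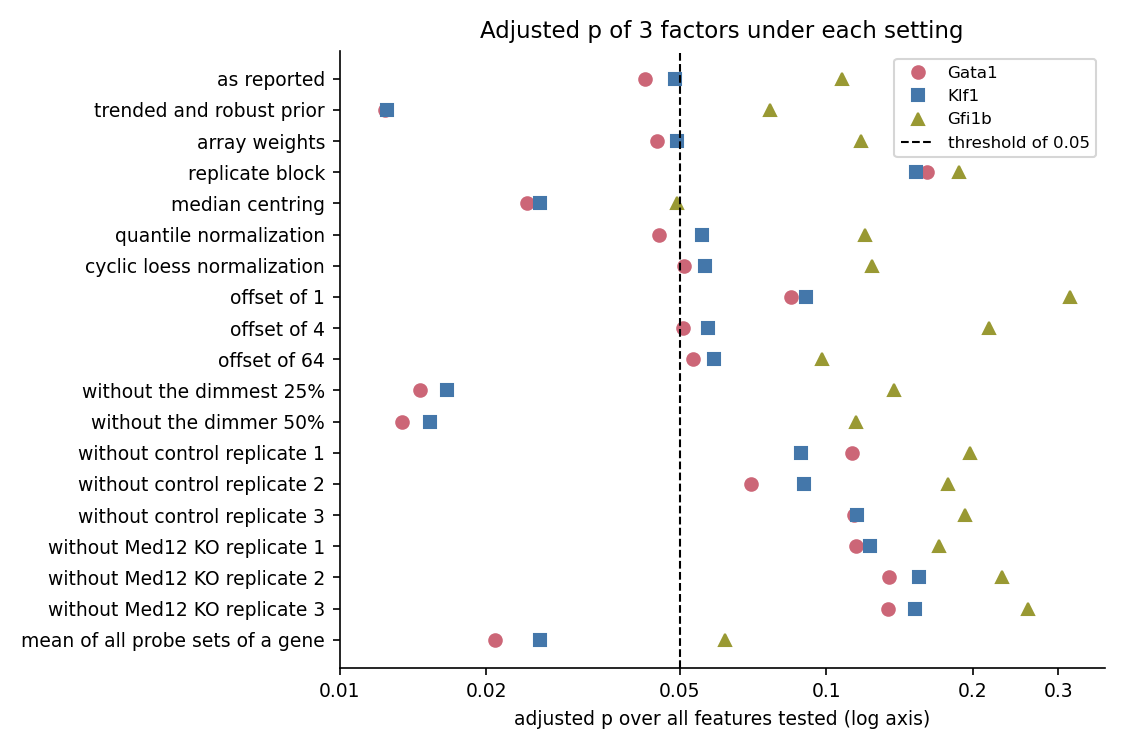
Adjusted p over all features tested (x axis, log axis) of Gata1, Klf1 and Gfi1b under the reported setting and each alternative (y axis), with the threshold of 0.05 as a dashed line. Gata1 and Klf1 lie between 0.0124 and 0.161 and lie above the threshold in 11 and 12 of 18 alternatives, and Gfi1b is below it after median centring alone.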

How the data were processed

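Gene expression was measured on 6 microarrays, 3 per group. The authors deposited 1 linear signal intensity per probe set and array; RMA is listed in the submitters' processing notes with no version. The deposited intensity values are however linear, from 0 to 11133.8, with 58 zeros, so how they were made is not given in the sources used here. Of the probe sets, 64 controls were left out, and of the other 45037 the annotation gave 34945 a single symbol, 932 several and 9160 none. Each gene was read by its probe set of highest mean. Values were taken as log2(signal + 16) and tested by linear models with empirical Bayes variances (limma 3.58.1, R 4.3.3; two-sided, 5.96 degrees of freedom), with Benjamini-Hochberg adjustment over all probe sets and a threshold of 0.05. The scale understates changes of dim genes. Pairs were tested with exact permutation of the arrays. The genes, lists, offset and tests were chosen with earlier results of these data known. Named genes were every member, the list genes that passed or else the first 2 listed (for the 26 other factors also the genes of the pairs), and the 5 most like Gata1. Genes outside this rule are said in the text to be singled out. Exceptions are markers and Hba-a2, given to describe a sum or the gate (Kit, Hlf, Cd34, Flt3, Slamf1, Procr, Mecom, Meis1, Tmod1, Hba-a1, Hba-a2, Ms4a2, Mcpt8, Pecam1, Col1a2). Of 222 list entries 198 matched. Positions are from the RefSeq table of GRCm38.p6. The fit was tested on simulated data, in which part of the changes put in did not pass. A gene that did not pass may thus still have changed. The number of arrays limits the precision.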

Additional observations from a re-analysis of the deposited data

How the results depend on the processing

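The count of 2 passing probe sets was 1 after quantile normalization and 0 after cyclic loess normalization, with 1, 4 or 64 in place of 16 added before log2, and without any 1 array (0 to 0 over the 6). It kept within 1.5 times of 2 with the other variance prior, array weights, median centring (3), both filters on dim probe sets and a threshold of 0.10. Over all probe sets, 343 calls became 693 after median centring, 712 and 763 without the dimmest 25% and 50%, 251 and 243 after quantile and loess normalization, 42, 251 and 244 with 1, 4 and 64 added, and 0 to 10 without 1 array. Gata1 kept its sign and its call in 7 and lost the call in 11 of 18 alternatives, with log2 differences of 1.83 to 2.30, and Klf1 in 6 and 12, with 1.76 to 2.31. The median of the 10 genes was 0.74 after median centring, 0.41 after quantile and 0.39 after loess normalization, 0.40 when a gene's probe sets were averaged, and 0.36 to 0.52 without 1 array. Signs turned in some settings for Lmo2, at 0.19 with median centring and -0.25 to 0.07 over the fits without 1 array (positive without Med12 KO replicate 1), for Ldb1, at 0.19 with median centring and -0.24 to 0.06 without 1 array (positive without control replicate 3 and without Med12 KO replicate 3), and for Nfe2, at 0.03 with median centring. The 5 pair differences kept their sign under all 13 alternatives run for them. For some of these the outcome was fixed. Leaving out 1 array could not turn a sign, as all knockout values lay above all control values. Median centring cancels within an array. The cause of these changes was not tested.

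Same-numbered arrays did not deviate together (correlations of deviations from the group means 0.02, 0.02 and 0.00). The signals thus gave no sign that the numbers pair the samples. Pairing that left no mark on the signals would not be seen this way, so whether the samples were paired is not known. With the replicate number as a block in the fit (replicate block), 0 probe sets passed in limma, members included, and 6 of the 12 had an unadjusted p under 0.05; Gata1 had an adjusted p of 0.161 and Klf1 of 0.153.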

Other observations

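Among the 26 other factors of the lineages, of which none passed in limma's test, 3 genes had all knockout values above the control values, a share near that over all probe sets (7.61%, or 16.5% at a mean signal of at least 100). They were E2f2, a cell cycle factor needed for late red cell divisions, at 99.1, 73.3 and 28.8 in controls and 322.0, 265.1 and 230.6 in knockouts (log2 1.89, SE 0.37; limma adjusted p = 0.0947), the retinoblastoma gene Rb1 (log2 1.01, SE 0.21; adjusted p = 0.107) and E2f4 (log2 0.92, SE 0.23; adjusted p = 0.139). One of the 2 Rb1 probe sets had a negative difference. In 10 of the 26 genes all knockout values lay below the control values, against 13.3% of all probe sets and 13.1% of those with a mean signal of at least 100. Besides Gfi1 and Spi1 these included the ETS genes Erg (-1.09) and Etv6 (-1.04) and the actin-linked coactivator gene Mrtfa (-1.63, SE 0.31; adjusted p = 0.0921). Of the NF-E2 relatives, Bach2, a repressor of lymphoid cells, was at 175.7, 164.2 and 188.0 in controls and 66.4, 45.1 and 14.9 in knockouts (log2 -1.83, SE 0.36; limma adjusted p = 0.0967), whereas Bach1, the haem-regulated repressor of red cell genes, was at -0.22 (SE 0.27). The choice of these genes was made with their values known.

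The iron importer gene of mitochondria, Slc25a37, and the transferrin receptor gene Tfrc, both on the erythroid list and singled out with their values known, had differences of opposite sign. Slc25a37 was at 299.6, 274.2 and 236.7 in controls and 168.7, 151.6 and 92.3 in knockouts (log2 -0.93, SE 0.23; limma adjusted p = 0.146). Tfrc overlapped between groups on its brightest probe set (log2 1.08, SE 0.52; limma adjusted p = 0.395), although all 3 of its probe sets were higher and 1 of them passed.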
